A study of Mus musculus with 18 samples.

Results

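The comparison described here asked whether cells labelled Cd276KO departed from their controls in the same way when they grew as tumors and when they grew in culture. For every gene, the log2 fold change of Cd276KO against control in cultures was subtracted from the log2 fold change in tumors, so that a positive difference means a relatively higher Cd276KO level in tumors. It covered all genes in 12 of the 18 libraries of the series, 3 in each of 4 groups. The cells were HM-1, an ovarian cancer line of the mouse for which B6C3F1 is named as the strain. The control cultures and Cd276KO cultures were grown in MEM alpha with serum. The control tumors and Cd276KO tumors came from the same 2 kinds of cells injected into the skin of B6C3F1 mice and taken at day 10. The other 6 libraries, from the ID8 line, enter only an alternative fit. The labels call the replicates biological but do not give the number of clones, cultures or mice, the exon targeted, the kind of control cell or any pooling. The p-values therefore rest on the spread among these libraries, which may be partly technical.

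B7-H3, the product of Cd276, is a membrane protein of the B7 family, whose members raise or lower lymphocyte responses. It is found on many carcinomas and on vessels and stroma within tumors, and it has been studied as a target for treatment. Cells in a dish meet medium and serum alone, whereas grafted cells lie among host macrophages, lymphocytes, vessels and fibroblasts, and RNA of both is sequenced together. In such bulk libraries a change in the number of cells of a type and a change in RNA per cell cannot be told apart.

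Read counts summed to between 17349082 and 25354150 per library. Levels are given as CPM, counts scaled to a library total of 1000000. Control culture 1 stood apart from control cultures 2 and 3, with a chi-square per gene (their counts compared over genes) of 64.9 and 63.9, against 1.57 between those 2. Control tumor 3 stood apart from control tumors 1 and 2 (134 and 81.3, against 41.1 between those 2). The macrophage markers summed to 72.3 to 88.7 CPM in the 6 cultures and to 954.5 to 2655 CPM in the 6 tumors. The epithelial list summed to 5316 to 6505 CPM in the cultures, but this sum does not speak for each member. Of its 19 genes 2 had no count in control cultures, and the cadherin gene Cdh1 was at 0.0567 to 0.464 CPM over the 6 cultures. Of 12 markers of mesothelium and ovarian surface, 3 had no count in control cultures.

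Cd276 itself was at 74.2, 93.5 and 91.5 CPM in control cultures and at 47.2, 47.7 and 44.8 CPM in Cd276KO cultures. In tumors it was at 142, 107 and 116 CPM in controls and at 73.2, 97.2 and 89.5 CPM in the Cd276KO group. The groups did not overlap in either setting, as for 26.2% of all genes with higher controls in cultures and 20.7% in tumors, and transcripts of the gene were still counted in every library labelled Cd276KO. The log2 fold change was -0.85 (SE 0.14) in cultures and -0.46 (SE 0.14) in tumors, a difference of 0.39 (SE 0.20, edgeR adjusted p = 0.409). The tumor change passed the threshold in the fit over 12 libraries (edgeR adjusted p = 0.0436) and not in a fit over the 6 tumors (0.105), nor without any of 6 single libraries (0.0615 to 0.13).

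Across 15623 genes tested with edgeR's quasi-likelihood test, 443 genes (2.84%) had a Cd276KO effect that differed between tumors and cultures at an adjusted p under 0.05. The difference was positive in 268 genes (1.72%) and negative in 175 (1.12%), and 215 and 121 of these exceeded a factor of 2. A positive difference mostly meant a gene that was lower in Cd276KO cultures, since the culture fold change was below 0 in 247 of the 268. The tumor fold change of these 268 was below 0 in 119 and above 0 in 149. Of the 175 with a negative difference, 141 had a culture fold change above 0 and a tumor fold change below 0. All 443 kept their direction in each alternative in which they were tested, but these fits reuse libraries in which the genes were called.

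The number called depended on single libraries. It was 913 without control tumor 3 and 1553 without both libraries that stood apart, which included 437 of the 443. It was 266 and 280 without control culture 2 or 3, 225, 244 and 229 without Cd276KO culture 1, 2 or 3, and 227 without Cd276KO tumor 3. Limma voom with a separate weight for each group called 424 genes, 359 of them among the 443.

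In the same fit the Cd276KO effect was called for 2257 genes in cultures (14.4%, with 809 or 5.18% higher and 1448 or 9.27% lower) and for 2709 genes in tumors (17.3%, with 1100 or 7.04% higher and 1609 or 10.3% lower). Both effects were called for 1077 genes, of which 1022 went the same way, 310 higher and 712 lower. For 940 of the 1077 the difference was not called, although a p that misses the threshold does not show equal effects. Fits over 6 libraries each called 3452 genes in cultures and 826 in tumors. The fit over 12 libraries uses 1 spread per gene for both settings, while the chi-square per gene between replicates ran from 1.57 to 64.9 in cultures and from 11.9 to 134 in tumors. The culture count was 1458 and 1464 without control culture 2 or 3, 1066, 1093 and 1101 without Cd276KO culture 1, 2 or 3, and 3753 without control tumor 3. The tumor count was 1633 and 1368 without Cd276KO tumor 1 or 3.

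The 443 genes fell into several kinds. For 138 genes (31.2%) the effect was called in cultures alone, and for 167 (37.7%) in tumors alone. Another 74 (16.7%) were called in both with the same sign and a smaller effect in tumors, and 72 of these were lower in both. A further 55 (12.4%) were called in both with opposite signs, and 8 in both with a larger effect in tumors. The chemokine gene Cxcl10 was called for the difference and for neither effect by itself. These kinds depend on the fit. In fits over 6 libraries each, 130 of the 138 were called in cultures and 0 in tumors, while of the 167 only 105 were called in tumors and 42 in cultures, and 44 of the 74 were called in both. Without both libraries that stood apart, 33 of the 138 were called in tumors too, 24 of them with the opposite sign, and 33 of the 167 in cultures too, 26 of them with the opposite sign. In the plot of tumor against culture fold changes, the 72 of these 74 that were lower in both lie on the left, above the diagonal of equal effects. Some genes with the effect called in cultures alone lie far to the left as well. Over all genes tested the 2 fold changes had a Pearson r of 0.415, a description across genes of the same libraries.

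**Figure D1:**
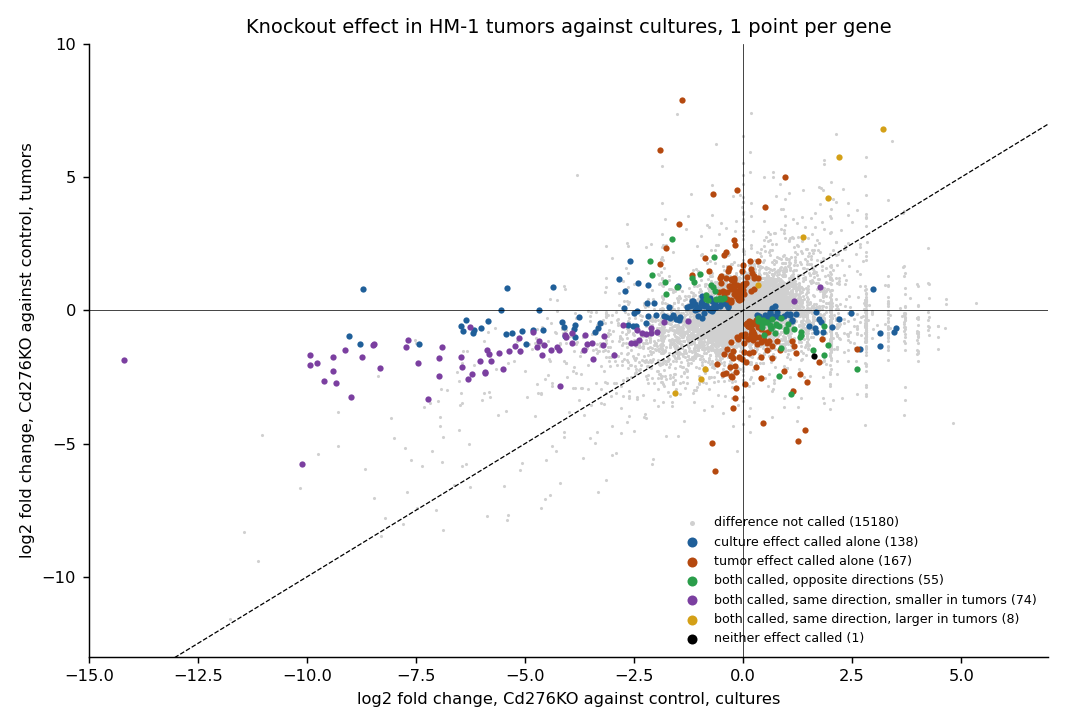
Each point is 1 of 15623 genes, placed by its log2 fold change of Cd276KO against control in cultures (horizontal) and in tumors (vertical), and the dashed line marks equal effects. Colored points are the 443 genes called for the difference, by kind. The culture effect alone was called for 138 (blue) and the tumor effect alone for 167 (orange). Both were called with opposite signs for 55 (green), and with the same sign and a smaller effect in tumors for 74 (purple). Of the 74, 72 were lower in both and lie on the left, as do some blue points.

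Several large differences belonged to genes that were near absent from Cd276KO cultures and present in Cd276KO tumors. To describe them, genes were taken that had a mean of at least 5 CPM in control cultures and at most 3 counts summed over the Cd276KO cultures. There were 16 such genes, and 7 of them had no count in any Cd276KO culture. This choice used cultures alone, so their culture levels are a description. In tumors all 16 were lower in the Cd276KO group (10.3% of all genes were), with no overlap between the tumor groups (20.7% of all genes). In the fit over the 6 tumors 14 of the 16 were called. The difference itself was called for 8.

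Among these 16 genes, the share of the control tumor level that was left in Cd276KO tumors fell into 2 ranges. The gap between them was seen after the values were known and depends on the limits set. Ccl2, with 6 counts over the Cd276KO cultures, lay between the ranges. Its means were 66.0 CPM in control tumors and 5.76 CPM in Cd276KO tumors. Nefl, Spint2, Gm773, Perp, 3830403N18Rik, Xlr, Cth, Gfra4 and D330045A20Rik kept between 0 and 3.77%. Ckap4, Arhgap30, Trim44, Gpx7, Cyba, Akip1 and Tmem37 kept between 20.0 and 41.2%. All 7 genes of the second range were called for the difference, and of the 9 in the first only Nefl was. The share left in tumors is itself a part of that difference, so these counts describe the split and support nothing further. The plot of these 16 genes by library shows both ranges.

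**Figure D2:**
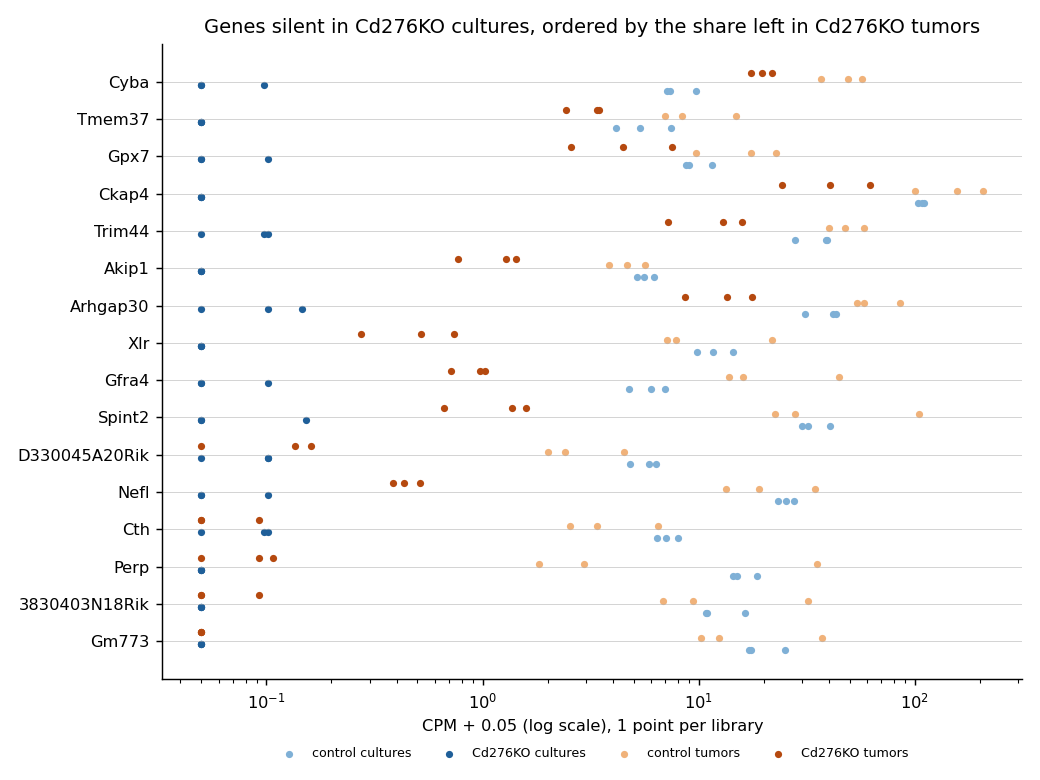
Each point is the level of 1 gene in 1 library, as CPM plus 0.05 on a log axis, for the 16 genes with at least 5 CPM in control cultures and at most 3 counts over the Cd276KO cultures, ordered by the share left in Cd276KO tumors. Cd276KO cultures (dark blue) sit at the left edge for all 16, while Cd276KO tumors (dark orange) sit at 20.0 to 41.2% of control tumors in the upper 7 genes and at 0 to 3.77% in the lower 9.

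Promoters of 2 genes of each range are shown here so that their sequences can be compared, because genes without transcripts in one setting and with transcripts in another are often examined for CG dinucleotides, the sites of DNA methylation. Each is the 250 bases before the RefSeq start on GRCm38.p6, written 5′ to 3′ on the gene's strand in lower case with each CG in capitals. CG reads the same on both strands. Akip1 (chr7:109703428-109703677, plus strand) and Cyba (chr8:122432941-122433190, minus strand) belong to the range with the larger share left in Cd276KO tumors. Spint2 (chr7:29281978-29282227, minus strand) and Xlr (chrX:53797707-53797956, minus strand) belong to the range with the smaller share.
Akip1: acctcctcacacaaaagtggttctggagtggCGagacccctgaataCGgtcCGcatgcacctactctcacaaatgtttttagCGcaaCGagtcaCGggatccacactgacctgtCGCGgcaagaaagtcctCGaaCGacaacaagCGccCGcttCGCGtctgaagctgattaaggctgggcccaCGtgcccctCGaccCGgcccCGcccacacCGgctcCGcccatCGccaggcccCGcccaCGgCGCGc
Cyba: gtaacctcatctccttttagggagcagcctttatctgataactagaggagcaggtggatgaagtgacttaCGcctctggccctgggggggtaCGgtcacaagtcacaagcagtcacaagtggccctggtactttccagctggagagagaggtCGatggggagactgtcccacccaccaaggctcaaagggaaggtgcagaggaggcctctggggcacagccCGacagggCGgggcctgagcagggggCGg
Spint2: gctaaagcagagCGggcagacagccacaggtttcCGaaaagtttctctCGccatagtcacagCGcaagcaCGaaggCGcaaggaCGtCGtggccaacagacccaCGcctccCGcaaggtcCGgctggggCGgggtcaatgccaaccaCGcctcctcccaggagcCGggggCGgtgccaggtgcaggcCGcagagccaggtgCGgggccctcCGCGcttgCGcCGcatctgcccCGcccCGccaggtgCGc
Xlr: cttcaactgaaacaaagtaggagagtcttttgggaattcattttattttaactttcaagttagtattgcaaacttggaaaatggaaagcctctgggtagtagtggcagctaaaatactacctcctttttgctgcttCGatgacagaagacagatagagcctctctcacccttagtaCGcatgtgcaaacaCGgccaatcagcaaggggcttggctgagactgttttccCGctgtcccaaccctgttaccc
The Akip1 promoter held 25 CG and that of Spint2 24, at 1.05 and 0.794 times the number its C and G content would give, whereas Cyba held 6 (0.275) and Xlr 4 (0.325). Both ranges thus had a promoter rich in CG and one poor in it. A ratio of at least 0.6 was found in 5 of the 7 genes of the second range and in 1 of 5 of the first with a RefSeq promoter, against 34.5% of all 27025 promoters and 74.7% of those of genes at 5 CPM or more in control cultures. These counts are a description of a split made after the values were seen, and methylation was not measured. Of the 16 genes 4 lay on the X chromosome, which held 3.01% of the genes tested. Among these, 3830403N18Rik (from position 56136572) and Gm773 (from 56189827) lie close together. The promoters of 3830403N18Rik and Xlr are alike over most of their length, so the 4 may not be independent.

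Ckap4, which encodes a membrane protein that shapes sheets of the endoplasmic reticulum, was among the 7 without a count in Cd276KO cultures. It was at 109.9, 103 and 107 CPM in control cultures, so the Cd276KO cultures were at least 2126-fold lower when 3 counts over the group are taken as the floor. Control tumors had 208, 101 and 157 CPM and Cd276KO tumors 24.2, 62.2 and 40.3 CPM. Every Cd276KO tumor thus held the transcript, below each control tumor. The tumor log2 fold change was -1.85 (SE 0.34), so the difference from cultures was at least 9.21 on the log2 scale (edgeR adjusted p = 0.000507). The Ckap4 gene (ENSMUSG00000046841.5) spans positions 84526305 to 84534062 of chromosome 10 in GRCm38, minus strand.

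Trim44, which encodes a tripartite motif protein linked to ubiquitin removal, had 27.7, 38.7 and 39.2 CPM in control cultures and 2 counts over the Cd276KO cultures, a ratio of 1077 (95% counting interval 298 to 8897). It was at 58.4, 39.9 and 47.7 CPM in control tumors and at 7.18, 15.9 and 12.9 CPM in Cd276KO tumors. The tumor log2 fold change was -1.99 (SE 0.27) and the difference was called (edgeR adjusted p = 0.000105). Arhgap30, a gene for a GTPase-activating protein best known from blood cells, had 31.1, 41.7 and 43.2 CPM in control cultures and 3 counts over the Cd276KO cultures (ratio 787, 95% counting interval 269 to 3819). In tumors it went from 58.0, 54.0 and 85.8 CPM to 8.57, 17.6 and 13.4 CPM, with no overlap (log2 fold change -2.28, SE 0.27, edgeR adjusted p of the difference 0.000166). Counting intervals here and below cover counting error only.

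Cyba, the p22phox subunit of the phagocyte NADPH oxidase, stood at 9.70, 7.06 and 7.31 CPM in control cultures, with 1 count over the Cd276KO cultures (ratio 469.7, 95% counting interval 83.9 to 18590). Tumors held 49.0, 36.8 and 57.2 CPM as controls and 17.4, 21.8 and 19.7 CPM as Cd276KO, so this gene kept the highest share of the 16, 41.2%. Its tumor log2 fold change was -1.24 (SE 0.21) and its difference had an edgeR adjusted p of 8.73e-05. Akip1, which encodes a protein that binds protein kinase A, had no count in Cd276KO cultures, at least 110.8-fold lower than in controls. It had 5.63, 3.80 and 4.59 CPM in control tumors and 0.723, 1.23 and 1.38 CPM in Cd276KO tumors (log2 fold change -2.03, SE 0.30, edgeR adjusted p of the difference 0.000718). Tmem37 was at least 108-fold lower in cultures and went in tumors from 6.96, 8.30 and 14.9 CPM to 2.39, 3.32 and 3.40 CPM (-1.68, SE 0.35, edgeR adjusted p of the difference 0.00205). Gpx7, a glutathione peroxidase gene of the endoplasmic reticulum, had 22.7, 9.71 and 17.5 CPM in control tumors and 2.50, 7.49 and 4.44 CPM in Cd276KO tumors (edgeR adjusted p of the difference 0.00273). The tumor calls of Tmem37 and Gpx7 ended in the fit over 6 tumors (edgeR adjusted p = 0.0517 and 0.0753), and also without Cd276KO tumor 1 for Tmem37 (0.0588) and without Cd276KO tumor 3 for Gpx7 (0.0683).

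Genes of the first range kept a small share of the control level in tumors as well. Their levels in Cd276KO tumors were 0 to 1.16 CPM, against 1.11 to 42.2 CPM in the second range. The levels met only through Spint2 (1.16 CPM) in the first range and Akip1 (1.11 CPM) in the second. Over the Cd276KO tumors Gm773 had 0 counts and 3830403N18Rik and Cth 1 each, while Akip1, the lowest of the second range, had 66. Perp, a p53 target and desmosome gene, was at least 313.7-fold lower in cultures. In tumors it had 1.78, 2.91 and 35.3 CPM as control and 0, 0.0426 and 0.0576 CPM as Cd276KO, where the 2 counts left give a ratio of 353 (95% counting interval 97.4 to 2920). Its difference had an edgeR adjusted p of 0.829. Spint2, an inhibitor of serine proteases on epithelial cells, went from 40.7, 29.9 and 32.2 CPM to 2 counts in cultures (ratio 1004, 95% counting interval 278 to 8296) and from 22.4, 27.9 and 104 CPM to 0.612, 1.53 and 1.33 CPM in tumors. Both groups of each setting were apart for these 2 genes, and control tumor 3 was the highest control tumor. The difference of Spint2 was not called (edgeR adjusted p = 0.174), but was without control tumor 3 (0.00231) and by DESeq2 (0.0244). Xlr, one of a family of similar X-linked genes whose reads can be shared, was at least 233-fold lower in cultures and in tumors went from 7.08, 7.78 and 21.8 CPM to 0.223, 0.468 and 0.692 CPM (edgeR adjusted p of the difference 0.0616, and 0.00445 without control tumor 3, 0.00194 by DESeq2 and 0.0117 by limma voom). Nefl, a neurofilament gene, had an edgeR adjusted p of 0.0317 for the difference, and leaving out any of 10 of the 12 libraries ended that call, with values between 0.0511 and 0.153.

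With a lower limit of 1 CPM in control cultures the same rule gave 72 genes. In tumors 57 of these were called lower in the Cd276KO group by edgeR (10.3% of all genes were) and 0 higher (7.04% of all genes). At an unadjusted p under 0.05 1 of the 72 was higher, and DESeq2 and limma voom also called 0 higher. The difference was called for 31. The share left in Cd276KO tumors ran from 0 to 170.81% over the 72 genes, with a median of 19.9%.

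The 72 genes called lower in both and less so in tumors include the 8 of the 16 near-absent genes that were called for the difference. As a description of genes chosen for a larger loss in cultures, a median of 2.20% of the control level was left in Cd276KO cultures and 34.7% in Cd276KO tumors. Ivns1abp, which encodes a kelch protein that binds actin, fell from 56.3, 62.7 and 67.7 CPM to 0.143, 0.102 and 0 CPM in cultures. In tumors it fell from 90.0, 80.9 and 110 CPM to 19.8, 30.5 and 30.4 CPM. Its difference of 7.64 (SE 0.45) had the lowest edgeR adjusted p of the named genes, 1.95e-05. Anpep, the surface peptidase CD13, had 25.2, 38.1 and 35.4 CPM in control cultures and 0.239, 0.102 and 0.103 CPM in Cd276KO cultures. Tumors had 62.0, 44.9 and 41.1 CPM as control and 14.7, 28.7 and 23.1 CPM as Cd276KO, which did not overlap. Its difference was 6.56 (SE 0.50, edgeR adjusted p = 8.73e-05), while its tumor fall of -1.12 (SE 0.25) was not called over 6 tumors (0.0529).

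Tnc and Birc3 were also among the 72. Tnc, the matrix glycoprotein tenascin-C, fell in cultures from 252, 448 and 429 CPM to 6.21, 5.63 and 6.29 CPM. In tumors it fell from 1682, 914 and 1656 CPM to 159, 386 and 269.8 CPM. The groups were apart in both settings, and the difference was 3.56 (SE 0.48, edgeR adjusted p = 0.00273). Birc3, an inhibitor of apoptosis induced by NF-kB, went from 7.09, 6.98 and 7.35 CPM to 0.143, 0 and 0.155 CPM in cultures and from 21.3, 16.3 and 24.6 CPM to 3.17, 7.37 and 5.82 CPM in tumors. Its difference was 4.15 (SE 0.64, edgeR adjusted p = 0.00624). The proteoglycan gene Vcan behaved likewise in direction (difference 3.90, SE 0.74, edgeR adjusted p = 0.0163), but its call ended without any 1 of the Cd276KO cultures (0.0503, 0.0501 and 0.0622).

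Among the 138 genes with the effect called in cultures alone, the difference was positive in 96 and negative in 42. The strongest were again lower in Cd276KO cultures. Epas1, the hypoxia-inducible factor HIF-2 alpha, fell from 6.64, 12.9 and 11.4 CPM to 0.0955, 0.102 and 0.155 CPM in cultures. In tumors it had 67.4, 42.1 and 44.4 CPM as control and 28, 51.2 and 37.6 CPM as Cd276KO, and these ranges overlapped. The culture log2 fold change of -6.36 (SE 0.48) stood against a tumor value of -0.37 (SE 0.27), a difference of 5.99 (SE 0.57, edgeR adjusted p = 0.0003). The endothelial markers, a cell type in which Epas1 is also active, summed to 264 to 522 CPM in control tumors and 327 to 450.4 CPM in Cd276KO tumors, and their part in the Epas1 level was not tested.

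Ucp2, a mitochondrial carrier gene, had 19.5, 20.5 and 20.3 CPM in control cultures and 0.430, 0.154 and 0.412 CPM in Cd276KO cultures. Its tumor values were 96.8, 56.5 and 63.7 CPM and 38.3, 58.8 and 62.9 CPM, which overlapped (difference 5.43, SE 0.44, edgeR adjusted p = 9.32e-05). Ptgs1, the cyclooxygenase COX-1, fell in cultures from 6.58, 5.84 and 5.37 CPM to 0.0955, 0.0512 and 0.103 CPM, and tumors had 21.6, 15.1 and 13.3 CPM against 7.57, 13.7 and 9.57 CPM. The tumor ranges of Ptgs1 overlapped at 1 value, and the difference was 5.35 (SE 0.48, edgeR adjusted p = 0.000169). Tspan15, a tetraspanin that directs the protease ADAM10, had 2.38, 2.64 and 2.20 CPM in control cultures and no count in Cd276KO cultures, at least 48.2-fold lower. In tumors it had 8.17, 4.17 and 4.64 CPM as control and 7.12, 12.7 and 9.16 CPM as Cd276KO. Its difference was at least 6.37 on the log2 scale (edgeR adjusted p = 0.000516). Smaller culture effects in this kind included Plk2, a p53-induced kinase gene, with a culture log2 fold change of -0.71 and a tumor value of 0.08 (difference 0.79, SE 0.14, edgeR adjusted p = 0.0132). With Cd276KO culture 3 left out, Plk2 was not called (0.0503).

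Opposite directions in the 2 settings were called for 55 genes, 34 of them higher in Cd276KO cultures and lower in Cd276KO tumors. In fits over 6 libraries each, 18 of the 55 were still called in both with opposite signs. Aqp5, the aquaporin water channel of secretory epithelia, rose in cultures from 188, 167 and 154 CPM to 564, 626 and 612 CPM. In tumors it fell from 56.5, 61.4 and 37.2 CPM to 18.1, 13.0 and 15.8 CPM. The groups did not overlap in either setting. The log2 fold changes were 1.86 (SE 0.19) and -1.69 (SE 0.19), and the difference was -3.56 (SE 0.27, edgeR adjusted p = 7.5e-05). The Aqp5 gene (ENSMUSG00000044217.17) spans positions 99590782 to 99594829 of chromosome 15 in GRCm38, plus strand.

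Klf4, a transcription factor of epithelial differentiation, had 77.9, 103 and 105 CPM in control cultures and 158, 151 and 151 CPM in Cd276KO cultures. It had 139, 131 and 133 CPM in control tumors and 80.5, 64.3 and 74.0 CPM in Cd276KO tumors. Klf4 rose in cultures and fell in tumors, with a difference of -1.58 (SE 0.17, edgeR adjusted p = 0.00068). Ptpn22, a phosphatase gene known from lymphocyte signalling, went from 5.50, 5.6 and 6.30 CPM to 11.6, 12.7 and 12.1 CPM in cultures and from 16.8, 13.3 and 37.1 CPM to 1.84, 2.72 and 2.77 CPM in tumors. The tumor fall was the larger part of its difference of -4.25 (SE 0.47, edgeR adjusted p = 0.000669). Its culture rise (edgeR adjusted p = 0.0412) ended when any of 9 libraries was left out, while the difference stayed called in every alternative.

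Msln, the gene for mesothelin, a glycoprotein of mesothelial and many ovarian cancer cells, rose in cultures from 14.5, 12.2 and 12.7 CPM to 44.7, 49.6 and 44.1 CPM. In tumors it had 100.4, 105 and 169 CPM as control and 72.1, 91.8 and 76.7 CPM as Cd276KO. Every Cd276KO tumor was below every control tumor, and the difference was -2.45 (SE 0.26, edgeR adjusted p = 0.000516). The tumor fall of Msln was called over 12 libraries (edgeR adjusted p = 0.0404) and not over 6 (0.182), and it ended without any of 9 single libraries (0.0538 to 0.164). Tff1, a trefoil peptide gene of mucosal epithelium, had 9.98, 6.47 and 6.55 CPM in control cultures and 43.4, 48.5 and 44.8 CPM in Cd276KO cultures. Its tumor levels were 2.10, 2.77 and 10.5 CPM as control and 1.5, 0.468 and 1.27 CPM as Cd276KO. The difference was -4.83 (SE 0.79, edgeR adjusted p = 0.00758) and its tumor call, too, ended over 6 tumors (0.145), and without control tumor 3 (0.0508) or Cd276KO tumor 1, 2 or 3 (0.0556, 0.0962 and 0.075).

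The reverse, lower in Cd276KO cultures and higher in Cd276KO tumors, was called for 21 genes. Plau, the plasminogen activator urokinase, fell in cultures from 44.5, 40.4 and 41.9 CPM to 13.4, 15.4 and 14.5 CPM. In tumors it rose from 124, 169 and 167 CPM to 294, 233 and 287 CPM. Its groups were apart in both settings, and the difference was 2.37 (SE 0.19, edgeR adjusted p = 8.73e-05). Plvap, the diaphragm protein of fenestrated endothelium, was low in cultures, at 1.93, 1.26 and 1.69 CPM in controls and 0.430, 0.461 and 0.619 CPM in the Cd276KO group. In tumors it had 69.4, 43.8 and 33.8 CPM as control and 324, 303 and 306 CPM as Cd276KO, a log2 fold change of 2.69 (SE 0.24). The difference was 4.32 (SE 0.45, edgeR adjusted p = 0.000516). Its small culture fall was not called without control culture 1 or 3 (0.0523 and 0.0559) or Cd276KO culture 1 or 2 (0.0627 and 0.075). Over the same tumors 0 of the 11 endothelial markers were called in either direction by edgeR, DESeq2 or limma voom, and 0 had an unadjusted edgeR p under 0.05. The summed level of that list overlapped between the groups, as given above for Epas1. With 3 tumors per group the 0 calls do not show equal levels, and the part of endothelial cells in the Plvap rise was not tested.

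Vcam1, the adhesion molecule that binds leukocyte integrins, had 19.5, 21.9 and 23.1 CPM in control cultures and 7.30, 5.07 and 5.78 CPM in Cd276KO cultures. Tumors had 28.6, 30.3 and 11.2 CPM as control and 54.7, 32.8 and 55.2 CPM as Cd276KO. The difference was 2.84 (SE 0.47, edgeR adjusted p = 0.00863), and the tumor rise was called over 12 libraries (edgeR adjusted p = 0.0463) and not over 6 (0.144), nor without any of 5 single libraries (0.0661 to 0.151).

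**Figure D3:**
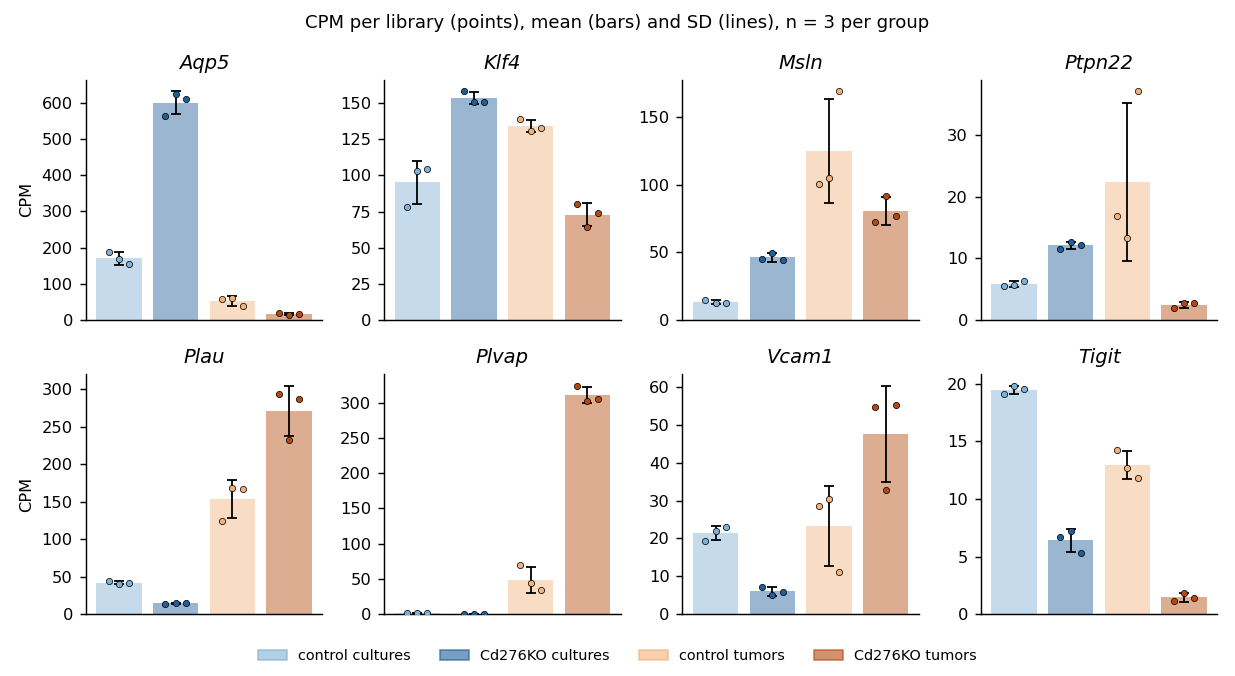
Levels in CPM of 8 genes in each library (points) with the mean (bars) and SD (lines) of n = 3 per group, for control and Cd276KO cultures (blue) and control and Cd276KO tumors (orange), each panel with its own axis from 0. Aqp5, Klf4, Msln and Ptpn22 were higher in Cd276KO cultures and lower in Cd276KO tumors, Plau, Plvap and Vcam1 went the other way, and Tigit was lower in both.

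Of the 167 genes with the effect called in tumors alone, 74 had a positive and 93 a negative difference. Many of the largest were scarce in cultures, which limits what the culture libraries can show. Arnt2, a partner of hypoxia and dioxin receptor factors, was at 0.0567, 0.158 and 0.127 CPM in control cultures and at 0.334, 0.205 and 0.412 CPM in Cd276KO cultures. It fell from 5.34, 5.21 and 6.52 CPM to 0.334, 0.213 and 0.173 CPM in tumors, where all control tumors were far above the rest. The difference was -5.92 (SE 0.58, edgeR adjusted p = 0.000341). Tmprss11b, a serine protease gene of squamous epithelium, had 0.681 to 1.67 CPM over the 6 cultures. It fell from 17.2, 16.3 and 29.4 CPM in control tumors to 0.835, 1.36 and 1.04 CPM in Cd276KO tumors (difference -4.67, SE 0.48, edgeR adjusted p = 0.000463). Squamous keratinocyte markers summed to 8.86 to 309 CPM in control tumors and 9.15 to 9.86 CPM in Cd276KO tumors, with the top value in control tumor 3, and their part in the Tmprss11b fall was not tested. Without control tumor 3, the Tmprss11b difference was still called.

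Adgrf1, an adhesion G protein-coupled receptor gene, rose in tumors from 0.971, 1.5 and 0.626 CPM to 26.0, 10.7 and 26.0 CPM. Cultures had 1.42, 2.68 and 2.32 CPM as control and 1.43, 1.49 and 0.980 CPM as Cd276KO, and these overlapped. Its difference was 5.05 (SE 0.59, edgeR adjusted p = 0.00099) and did not pass in limma voom (0.101). Ccne2, the cyclin E2 gene of the G1 to S step, was even in cultures, at 70.8 to 75.1 CPM in all 6 libraries. It fell in tumors from 41.4, 31.1 and 35.3 CPM to 18.4, 20.9 and 18.4 CPM (difference -0.91, SE 0.16, edgeR adjusted p = 0.0112), a call that ended without Cd276KO tumor 3 (0.0514).

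Immune genes were among the tumor effects. Arg1, the arginine-degrading enzyme of alternatively activated macrophages, had 0.567, 0.394 and 0.465 CPM in control cultures and 1.24, 1.43 and 1.08 CPM in Cd276KO cultures. This rise (log2 fold change 1.45) was not called (edgeR adjusted p = 0.0922), but was by DESeq2 (0.0117) and over the 6 cultures (edgeR, 0.00561). Arg1 fell from 91.7, 118 and 203 CPM in control tumors to 24.6, 11.8 and 26.0 CPM in Cd276KO tumors. Its difference was -4.14 (SE 0.61, edgeR adjusted p = 0.00449), and limma voom did not call it (0.0745). Cd80, a ligand of CD28 and CTLA-4 on antigen-presenting cells, fell in tumors from 18.2, 13.3 and 17.9 CPM to 2.89, 3.83 and 4.44 CPM (difference -2.40, SE 0.40, edgeR adjusted p = 0.0089). Havcr2, the checkpoint receptor TIM-3, was at 5.67, 6.98 and 7.44 CPM in control cultures and at 10.2, 9.58 and 11.2 CPM in Cd276KO cultures (log2 fold change 0.66, edgeR adjusted p = 0.0545). In tumors it fell from 20.1, 20.0 and 34.3 CPM to 6.23, 7.54 and 6.97 CPM. Its difference of -2.47 (SE 0.29, edgeR adjusted p = 0.00106) was called in every alternative. The 15 macrophage markers summed to 2655, 2047 and 1443 CPM in control tumors and to 954.5, 1623 and 1342 CPM in Cd276KO tumors. Of the 15, 2 were called lower in tumors (Cd68 and Lyz2, named after their values were seen), as were 10.3% of all genes. Whether the falls of Arg1, Cd80 and Havcr2 follow the macrophage sum was not tested.

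Csrp3, a muscle LIM protein, rose in tumors from 0.769, 0.141 and 0.521 CPM to 5.95, 45.6 and 43.6 CPM. The 15 striated muscle markers summed to 189, 4.88 and 7.82 CPM in control tumors and to 171, 1167 and 1242 CPM in Cd276KO tumors, and 5 of the 15 were called higher in tumors, as were 7.04% of all genes. The Csrp3 difference (7.94, SE 1.56, edgeR adjusted p = 0.0205) ended without control culture 2 or 3 (0.065 and 0.085), without Cd276KO culture 1 or 3 (0.0527 and 0.0586) and in limma voom (0.632).

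A larger effect of the same sign in tumors was called for 8 genes, 5 higher and 3 lower. Il1rn, the interleukin-1 receptor antagonist, rose in cultures from 1241, 1255 and 1241 CPM to 3240, 2985 and 3152 CPM. In tumors it rose from 247, 251 and 182 CPM to 1778, 1150 and 1553 CPM. The rise was larger in tumors by 1.39 (SE 0.24, edgeR adjusted p = 0.00954). Upk1b, an uroplakin gene of bladder and related epithelia, went from 7.03, 7.97 and 8.11 CPM to 30.2, 28.4 and 28.4 CPM in cultures and from 1.25, 2.49 and 1.04 CPM to 33.8, 22.8 and 29.3 CPM in tumors. Cd276KO cultures and Cd276KO tumors thus had similar Upk1b levels, and the control tumors were the lowest group (difference 2.25, SE 0.35, edgeR adjusted p = 0.00651, limma voom 0.056).

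Tigit, an inhibitory receptor gene of T and NK cells, had 19.1, 19.8 and 19.6 CPM in control cultures and 6.68, 7.22 and 5.31 CPM in Cd276KO cultures. It fell further in tumors, from 14.2, 12.7 and 11.8 CPM to 1.11, 1.87 and 1.38 CPM. The difference was -1.54 (SE 0.26, edgeR adjusted p = 0.00993). The 16 T and NK cell markers summed to 0.254 to 0.355 CPM in control cultures, 0.615 to 0.812 CPM in Cd276KO cultures, 11.8 to 24.1 CPM in control tumors and 3.34 to 10.3 CPM in Cd276KO tumors, so the cultures held Tigit transcripts with few of those markers, 11 of which had no count in control cultures. Itgb7, an integrin beta chain, fell in cultures from 137, 145 and 139 CPM to 64.5, 74.5 and 69.8 CPM and in tumors from 111, 98.9 and 182 CPM to 18.9, 22.9 and 22.5 CPM (difference -1.60, SE 0.27, edgeR adjusted p = 0.00854), and its culture fall was not called without Cd276KO culture 1 (0.0516). Hnf4a, a nuclear receptor of gut and liver epithelium, rose in cultures from 1.93, 3.27 and 3.21 CPM to 26.8, 24.3 and 24.4 CPM. In tumors 3 counts were left in the controls, and Cd276KO tumors had 8.46, 2.51 and 6.23 CPM. The difference for Hnf4a (edgeR adjusted p = 0.0426) ended when any of 10 libraries was left out (0.0571 to 0.12). It also ended without both libraries that stood apart (0.0693) and in limma voom (0.662), which did not call the tumor rise of Hnf4a either (0.103).

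Several genes of the study's immune question were tested in the same way. Ccl2, the chemokine that recruits monocytes, fell in cultures from 18.5, 13.2 and 15.6 CPM to 0.0955, 0.205 and 0 CPM. In tumors it fell from 33.8, 24.1 and 140 CPM to 4.40, 6.90 and 5.99 CPM, with control tumor 3 far above the others. The log2 fold changes were -7.18 (SE 0.92) and -3.47 (SE 0.59), and their difference of 3.71 (SE 1.21) was not called (edgeR adjusted p = 0.155). Without control tumor 3 it was 4.88 and was called (0.000926), as it was without both libraries that stood apart (0.000629) and by DESeq2 (0.0222). Stat3, a transcription factor of cytokine signalling, had log2 fold changes of -0.84 (SE 0.16) in cultures and -0.80 (SE 0.16) in tumors, with a difference of 0.03 (SE 0.22, edgeR adjusted p = 0.988), and its tumor fall was not called over the 6 tumors (0.0567). Without both libraries that stood apart the Stat3 difference was 0.39 and was called (0.0301). A scavenging lectin of alternatively activated macrophages, Mrc1, rose in cultures from 15.0, 18 and 19.8 CPM to 56.6, 50.9 and 53.1 CPM. Its tumor levels were 203, 142 and 136 CPM as control and 54.1, 141 and 107 CPM as Cd276KO, which overlapped. The difference for Mrc1 was -2.29 (SE 0.40, edgeR adjusted p = 0.0112), made mostly of the culture rise of 1.64 (SE 0.29) beside a tumor value of -0.64 (SE 0.28, adjusted p = 0.14, and 0.0458 without Cd276KO tumor 2).

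Ccr2, the receptor for Ccl2 on monocytes, had no count in either group of cultures, so a difference between the settings could not be tested. Its tumor levels were 41.0, 8.07 and 5.32 CPM in controls and 6.79, 37.0 and 25.0 CPM in the Cd276KO group. Too few reads fell on Cd8a, a co-receptor of cytotoxic T cells, and on the interferon gamma gene Ifng for a test, with 16 and 1 counts over the control tumors and 12 and 2 over the Cd276KO tumors.

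Gene lists were described by the number of members called for the difference and by the median difference, beside a median of -0.01 over all genes. Over all genes tested, 1.72% had a positive and 1.12% a negative call for the difference, 5.18% were called higher and 9.27% lower in cultures, and 7.04% higher and 10.3% lower in tumors. The chemokine list, with 22 members tested, had 3 positive and 3 negative calls and a median difference of -0.47. In cultures 1 member was called higher and 6 lower, and in tumors 1 higher and 10 lower. The list summed to 672, 599 and 983 CPM in control tumors, with the top value in control tumor 3. Of its 23 genes, 7 had no count in control cultures and 7 none in Cd276KO cultures, which limits what the median can show. The positive calls were Cxcl15, Cxcl16 and Cx3cl1, and the negative ones Cxcl2, Cxcl10 and Ccl9. Cxcl16, the membrane-bound ligand of Cxcr6, fell in cultures from 6.18, 4.73 and 4.10 CPM to 0.525, 0.205 and 0.206 CPM and in tumors from 40.1, 35.9 and 29.3 CPM to 15.5, 22.1 and 19.0 CPM (difference 3.05, SE 0.41, edgeR adjusted p = 0.00255). The tumor fall of Cxcl16 ended without control tumor 1 or 2 (0.0666 and 0.0539) or Cd276KO tumor 1 or 3 (0.104 and 0.102). Cx3cl1, the chemokine fractalkine, had a culture log2 fold change of -1.06 and a tumor value of 0.11 (difference 1.17, SE 0.19, edgeR adjusted p = 0.00728). The neutrophil chemokine Cxcl2 had 2.89, 2.41 and 1.82 CPM in control cultures and 5.63, 4.81 and 4.90 CPM in Cd276KO cultures, a rise that was not called. It fell in tumors from 4.25, 4.83 and 32.4 CPM to 1.78, 1.11 and 2.07 CPM, a call that ended over the 6 tumors (edgeR adjusted p = 0.0982) and without Cd276KO tumor 1 or 2 (0.0513 and 0.0554). Calls for the difference ended with some single libraries left out for Cxcl15 (edgeR adjusted p = 0.0207, up to 0.0714), Cxcl10 (0.0412, up to 0.128), Cxcl2 (0.0425, up to 0.122) and Ccl9 (0.0263, up to 0.0859). Cxcl16, Cx3cl1 and Ccl9 were named after their values were seen.

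The interferon response list had 2 negative calls of 28 members, Gbp2 and Oasl2, and a median difference of -0.91. Gbp2, an interferon-induced GTPase, had 0.851, 0.710 and 0.803 CPM in control cultures and 1.72, 1.95 and 1.5 CPM in Cd276KO cultures. Its tumor levels were 10.2, 5.91 and 14.3 CPM as control and 2.34, 3.41 and 6.11 CPM as Cd276KO (difference -2.50, SE 0.55, edgeR adjusted p = 0.0339). Both calls for the difference ended in limma voom, and leaving out any of 9 libraries for Gbp2 (edgeR adjusted p up to 0.11) or 8 for Oasl2 (up to 0.107) ended them too. In cultures 1 member of the list was called lower, and in tumors 13 were. The tumor count was 1 in the fit over 6 tumors, and without control tumor 3 it was 7 lower and 2 higher. The list summed to 382, 358 and 778.5 CPM in control tumors and to 306, 302 and 289 CPM in Cd276KO tumors, so control tumor 3 was again the highest.

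Among 17 AP-1 and immediate early genes, 2 were called with a positive and 4 with a negative difference (median -0.44). Fos, a core AP-1 subunit, had 2.16, 3.35 and 2.87 CPM in control cultures and 6.83, 6.86 and 6.55 CPM in Cd276KO cultures. Its tumor levels were 35.0, 12.2 and 22.0 CPM as control and 10.7, 10.7 and 12.6 CPM as Cd276KO, with an overlap. Each of its effects was called over 12 libraries, and 5 single libraries left out ended the culture call and 10 the tumor call. The difference for Fos was -2.31 (SE 0.45, edgeR adjusted p = 0.0197), and leaving out control culture 3, Cd276KO culture 2 or 3, or Cd276KO tumor 2 or 3 ended the call (0.0514 to 0.0579). Fosb (difference -1.08, SE 0.18, edgeR adjusted p = 0.00993) and Dusp6, an ERK phosphatase gene (0.99, SE 0.18, 0.0112), were called too, the latter not without Cd276KO culture 1 (0.054). Fosl2 (-0.96, edgeR adjusted p = 0.03) and Egr3 (1.13, 0.0311) lost their calls when any of 6 and 9 libraries, respectively, was left out (up to 0.102 and 0.0999). All but Klf4 and Fos were named after their values were seen.

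The immune checkpoint list had 3 negative calls of 18 members, Havcr2, Cd80 and Tigit, with a median of -0.28. The NF-kB list had 2 positive calls of 19, Vcam1 and Birc3, and a median of 0.02. P53 targets had 2 positive calls of 20, Btg2 and Plk2. Btg2, an antiproliferative gene, had 47.6, 48.0 and 48.5 CPM in control cultures and 35.5, 37.5 and 34.8 CPM in Cd276KO cultures, and rose in tumors from 43.7, 53 and 52.5 CPM to 90.8, 65.2 and 79.4 CPM (difference 1.07, SE 0.17, edgeR adjusted p = 0.00696). With Cd276KO culture 1 left out, Btg2 was not called (0.0508). Heat shock chaperones had 2 negative calls of 12, Hsph1 and Dnajb1, and both ended with several single libraries left out (edgeR adjusted p up to 0.111 and 0.153). Proteases and the plasminogen system had 1 positive call of 18, Plau, and 1 negative, with a median of -0.58.

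The MHC class I list had 0 calls for the difference among 19 members by edgeR, DESeq2 or limma voom, with 2 at an unadjusted edgeR p under 0.05. Its median difference was -0.12, and 0.15 with 1 positive call without control tumor 3. Of its members 1 was called higher and 5 lower in cultures, and 7 lower in tumors. H2-K1, a class I heavy chain gene whose family members can share reads, had log2 fold changes of -1.55 in cultures and -2.17 in tumors, and Nlrc5, the activator of class I genes, -1.61 and -2.70. These 2 were named after their values were seen. The mesenchymal and matrix list had 1 positive call of 29, Tnc, and 1 negative, Ccn1, which ended with most single libraries left out (edgeR adjusted p up to 0.107). Its tumor count was 5 lower, and 18 without control tumor 3. The gut-type list was drawn up because its genes were known to be higher in Cd276KO cultures of this series, so its culture counts are not evidence. Of 9 tested, 6 were called higher in cultures and 5 in tumors, with Hnf4a positive and Tff1 negative for the difference. Glycolysis, oxidative phosphorylation, cholesterol synthesis and MHC class II genes had 0 calls for the difference by edgeR, DESeq2 or limma voom, with medians of -0.07, 0.07, 0.20 and 0.01. At an unadjusted edgeR p under 0.05 these 4 lists had 1, 0, 3 and 0 members. MHC class II genes summed to 1.43 to 2.44 CPM in cultures and to 607 to 1500 CPM in tumors. Their culture effect could thus hardly be measured, and the 0 calls do not show equal effects.

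**Figure D4:**
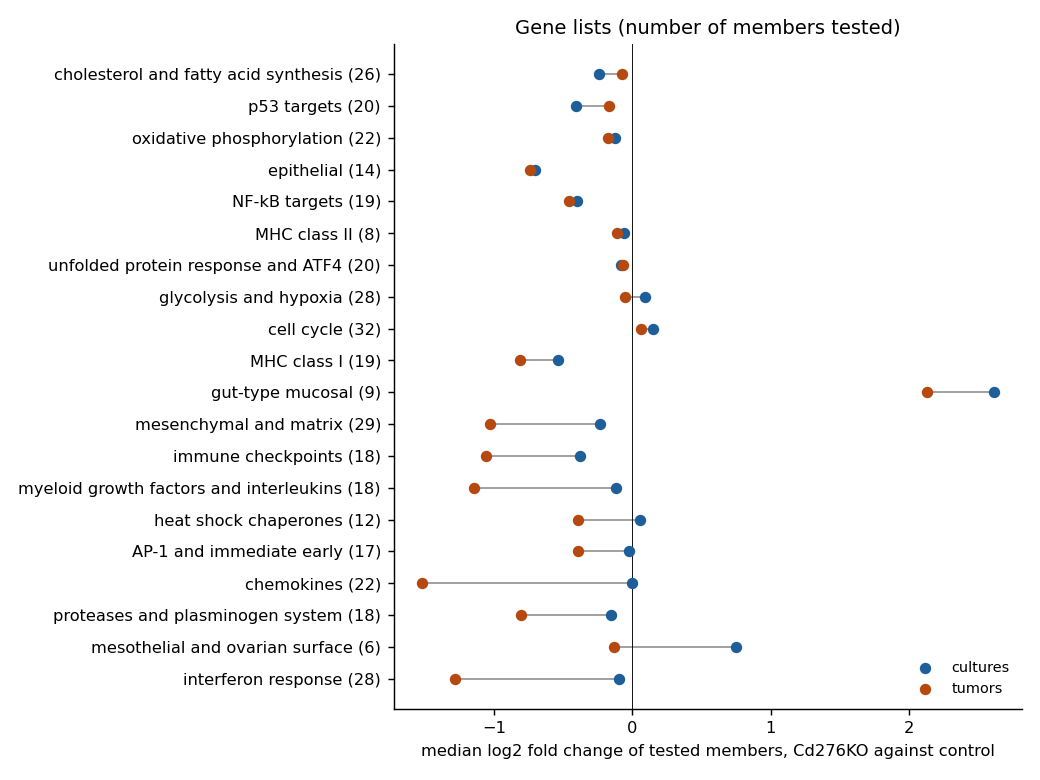
Median log2 fold change of Cd276KO against control over the tested members of each pathway list, in cultures (blue) and tumors (orange), with the number of members in parentheses and lists ordered by the median difference. The medians of chemokines and interferon response genes lay lower in tumors (-1.52 and -1.28) than in cultures (0 and -0.10). These medians include control tumor 3, which had the highest sum of the control tumors for both lists (983.2 and 778.5 CPM). Gut-type genes were high in both (2.13 and 2.62). Of 23 chemokine genes, 7 had no count in control cultures and 7 none in Cd276KO cultures. The chemokine sum was 586.6 to 717 CPM in control cultures and 136.1 to 149.5 CPM in Cd276KO cultures. In tumors it was 598.6 to 983.2 CPM in controls and 246.5 to 346.6 CPM in the Cd276KO group.

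Cell types that a tumor can hold were read from their marker lists. For macrophages, neutrophils, dendritic cells, T and NK cells, endothelium, fibroblasts and muscle, 0 members were called for the difference by edgeR. At an unadjusted p under 0.05 they had 2, 1, 0, 0, 2, 1 and 3 members. DESeq2 called 1 macrophage marker and limma voom 1 T and NK marker. Several of these lists were near absent from cultures, so 0 calls for them do not show equal effects. Over the 6 cultures T and NK markers summed to 0.254 to 0.812 CPM. Muscle markers summed to 2.29 to 3.13 CPM there and dendritic cell markers to 3.25 to 5.52 CPM. The muscle list had a median difference of 3.51, with 5 of 15 members called higher in tumors (7.04% of all genes). The M2-type markers had 2 negative calls of 10, Arg1 and Mrc1. The monocyte list had Vcan as its 1 call, a gene that the cultured cells expressed as well. Fibroblast and pericyte markers summed to 13100, 4607 and 597 CPM in control tumors and to 3600, 5791 and 5015 CPM in Cd276KO tumors, so the control tumors spread more widely than the gap between groups. Neutrophil markers summed to 32.1, 33.9 and 120.5 CPM in control tumors and 14.0, 9.28 and 14.0 CPM in Cd276KO tumors. These sums did not overlap, as for 20.7% of all genes with higher controls in tumors. Of 7 tested, 3 were called lower in tumors, as were 10.3% of all genes. Mast cell and eosinophil, nerve, adipocyte, erythroid and keratinocyte lists had 0 calls for the difference by edgeR, with 0, 1, 2, 2 and 0 members at an unadjusted p under 0.05, while DESeq2 called 2 adipocyte and 1 erythroid marker and limma voom 1 adipocyte marker. No B or plasma cell marker was high enough to test. Control tumor 3 had the lowest fibroblast and the highest keratinocyte and neutrophil sums of the control tumors.

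**Figure D5:**
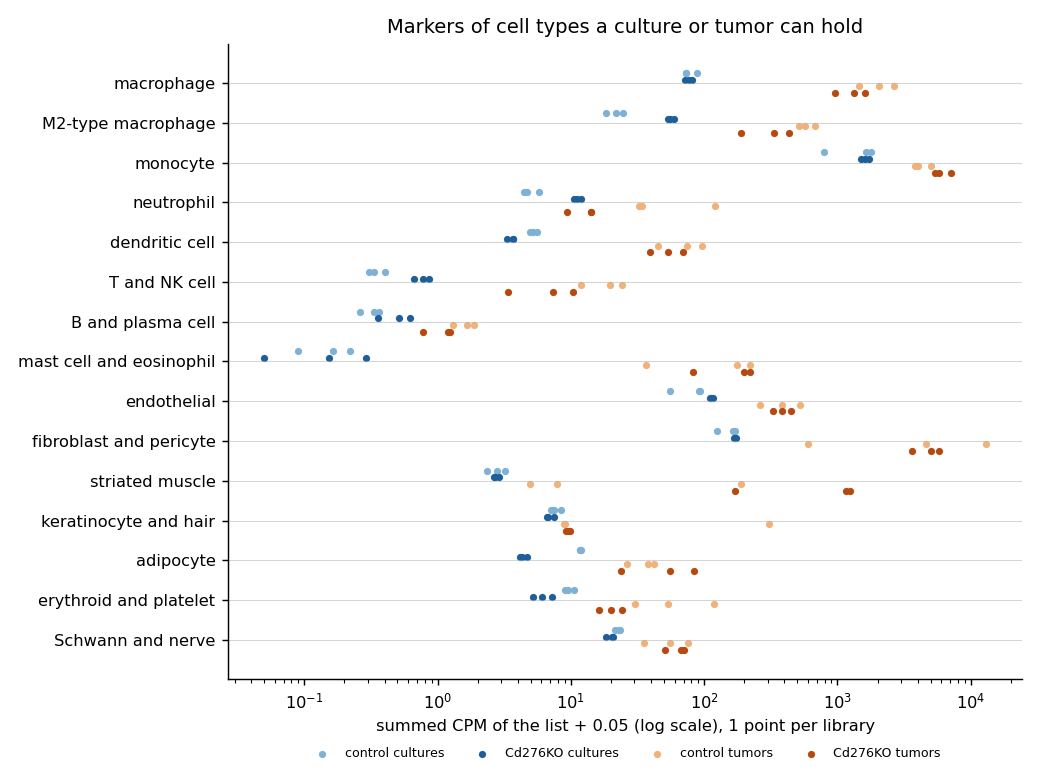
Summed CPM (plus 0.05, log axis) of the marker genes of each cell type in each library, for control and Cd276KO cultures (blue) and control and Cd276KO tumors (orange). Macrophage sums lay at 72.3 to 88.7 CPM in cultures and at 954.5 to 2655 CPM in tumors, and fibroblast, muscle and keratinocyte sums differed widely among tumors of 1 group.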

How the data were processed

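RNA was extracted from cultured cells or frozen tumors, per the labels' protocols, and the deposited table holds the authors' raw read counts per gene. Per the submitters' processing notes, Trim Galore, STAR and HTSeq were used with GRCm38 (mm10). Which versions, annotation and strand setting they used is not stated there, so reads of antisense partners or overlapping genes may be mixed. The table lists 54752 genes, of which 33472 had a count in the 12 libraries, and symbols and positions came from GENCODE M21 by gene identifier (33458 matched). Depths are given with the results.

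One edgeR 4.0.16 quasi-likelihood fit (robust, R 4.3.3) covered the 12 libraries with TMM factors and edgeR's filter on low counts, which left 15623 genes. Its 3 contrasts were Cd276KO against control in cultures, the same in tumors, and tumors minus cultures. Benjamini-Hochberg adjustment ran over all genes tested, with 0.05 as the threshold. Samples were grouped by their labels. The code was tested on simulated data. Alternatives used DESeq2 1.42.0, limma 3.58.1 (voom), other scalings and filters, all 18 libraries, each library left out and, chosen after seeing the data, both libraries that stood apart left out. Where a group had no count, folds are bounds against 3 counts over the group.

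Genes were named by rule: 7 genes of the study's question, the 12 highest and 12 lowest differences among called genes reaching 5 CPM in a group, the 6 largest in each kind, the 2 largest called in each of 35 lists and the 8 highest of the genes near absent from Cd276KO cultures, without predicted genes. The text describes part of them. Genes outside this rule are Cd68, Lyz2, the chemokine, AP-1 and MHC genes so marked, and those of the 16 near-absent genes beyond the 8. The genes and lists were chosen with earlier results of these data known. One gene taken by the rule is not reported here.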

Additional observations from a re-analysis of the deposited data

Results flagged for a closer look

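The Cd276KO effect differed between tumors and cultures by a test of the difference itself in 443 genes, of 15623 tested with edgeR. For 55 of these the effect was called in both settings with opposite signs, as for Aqp5 and Klf4 (higher in Cd276KO cultures, lower in Cd276KO tumors) and Plau (the reverse).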

How the results depend on the processing

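The 443 calls for the difference kept their direction in every alternative in which they were tested, while their number moved. The alternatives reuse libraries in which the 443 were called, so the kept direction is a description. DESeq2 called 885 genes (507 positive, 378 negative) and a fit over all 18 libraries 848 (511 and 337), against 268 and 175 positive and negative in the fit over 12. Without both libraries that stood apart it was 1553 (874 and 679). With 1 library left out it ran from 225 to 913 (154 to 528 positive, 70 to 385 negative). Calls in cultures numbered 3995 by limma voom, 3431 over 18 libraries, 3452 over the 6 cultures, 4150 without both libraries that stood apart and 1066 to 3753 with 1 left out. Calls in tumors numbered 1654 by limma voom, 826 over the 6 tumors, 4602 without both libraries and 1368 to 3461 with 1 left out. Other scalings and filters stayed within 1.5 times. A limit of 1 CPM in place of 5 raised the near-absent genes from 16 to 72. The cause of these moves was not tested.

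Same-numbered control and Cd276KO libraries did not deviate together (correlations of 0.00589, -0.0157 and -0.0230 in cultures and -0.592, -0.0109 and -0.0922 in tumors), so the numbers were not taken as pairs. With the replicate number as a block the difference was called for 69 genes (48 positive, 21 negative), the culture effect for 948 and the tumor effect for 1096. Samples correlated best with another number in several cases. With 3 libraries per group and few counts in cultures for many tumor genes, a small culture effect of such a gene could not be shown at this depth.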
